A study of Mus musculus with 12 samples.

Results

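The genes described here are 7 FXYD genes, Fxyd1 to Fxyd7, and the sodium pump beta subunit genes Atp1b1 and Atp1b3. Every probe whose gene name in the scanner files is one of these 9 was taken, which gave 14 of the 41174 probes on the array, for 9 of 21739 named genes. The genes were chosen by measured values, the KO over WT ratios of these same arrays, in which Fxyd4 was among the largest falls. Their KO over WT ratios are therefore given as a description, with no p-value, and the count of them past the threshold of the whole-array fit is no test of them.

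The sodium pump (Na,K-ATPase) moves sodium out of a cell and potassium in. Its catalytic subunit splits ATP, its beta subunit is needed for the enzyme to fold and reach the membrane, and FXYD proteins are small single-span membrane proteins that bind the pump and tune its affinity for ions or its speed. In the alveolar epithelium the pump on the basal side works with sodium channels on the air side to clear fluid from the airspace.

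Messenger RNA of Dnmt3a knockout (KO) and wild-type (WT) mouse lung tumours was compared on 12 Agilent 2-colour arrays, each co-hybridised with KO RNA and WT RNA in different dyes. Dnmt3a adds new methyl groups to cytosine, mostly where it is followed by guanine (CpG). All mice were of strain C57/129 and carried the K-ras LSL-G12D allele, and adenoviral Cre was given through the trachea or the nose at an age of 6 to 12 weeks. In the lung cells reached by the virus, Cre activated K-ras G12D in both genotypes and in KO mice deleted a conditional Dnmt3a allele on both copies. The labels do not say that uninfected cells of the tumour, such as vessel or blood cells, lost Dnmt3a. The arrays fell into 4 pairs by the ages and sexes in the labels, which give no unit of age. In pair A (replicates 1 to 4) a KO male of age 47.7 was set against a WT male of age 42.6, and in pair B (replicates 5 to 8) a KO male of age 27 against a WT male of age 41.3. In pair C (replicates 9 and 10) a KO male of age 27 was set against a WT female of age 47.6, and in pair D (replicates 11 and 12) a KO male of age 29.1 against a WT male of age 37.3. The KO animals were younger in pairs B, C and D, so genotype and age cannot be fully told apart. The labels leave unstated if separate animals or tumours stood behind the arrays of 1 pair. P-values therefore reflect array-to-array spread, which may hold little of the spread between animals. Over the kept probes, ratios of arrays within 1 pair correlated at r = 0.117 to 0.535, and between pairs at -0.149 to 0.531. Pairs B and C list a KO animal of the same age and sex, which may be 1 animal.

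Pairs A and B lay on slides 1 and 2, where 81.6% to 89.6% of probes were well above background, and pairs C and D shared slide 3, where 59% to 72.2% were. The targeted gene, Dnmt3a, was lower in KO RNA on 12 of 12 arrays, with a mean log2 KO over WT ratio of -0.213 ± 0.0451 (SE, limma adjusted p = 0.0217). Without replicate 12 its limma adjusted p was 0.0511, and over 34 alternatives it ran from 0.011 to 0.459. Its single array values ran from -0.411 to -0.055, and whether its probe lies in the deleted part was not tested. A filter asked for signal well above background in KO or in WT RNA on at least 6 of 12 arrays. It was passed by 35562 probes, all 14 probes of these genes included. All 7 markers of alveolar type 2 cells, the surfactant genes Sftpc and Sftpb among them, were well above background in both RNAs on 12 of 12 arrays. Of marker genes for 14 cell types, 7 of 8 endothelial genes fell and 0 rose, and their median ratio was below 0 on 12 of 12 arrays (-1.36 to -0.487). Of the 7 markers of alveolar type 2 cells measured, 1 fell (Lamp3), and so did 1 of 6 for alveolar type 1 cells (Rtkn2) and 1 of 6 for cardiac muscle (Myl4). No other list had a marker that passed the test.

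Since Dnmt3a acts on CpG, the bases just before the start of 3 of the genes are shown: Fxyd4 and Fxyd6, which had the lowest ratios, and Atp1b1 for contrast. Each line holds the 250 bases before the annotated start, read 5′ to 3′ on the gene's strand, from RefSeq on build GRCm38.p6, with each CG in capitals. Fxyd4 lies on the minus strand, at chr6:117937336-117937585. Fxyd6 lies on the plus strand, at chr9:45369935-45370184. Atp1b1 lies on the minus strand, at chr1:164458356-164458605.
Fxyd4: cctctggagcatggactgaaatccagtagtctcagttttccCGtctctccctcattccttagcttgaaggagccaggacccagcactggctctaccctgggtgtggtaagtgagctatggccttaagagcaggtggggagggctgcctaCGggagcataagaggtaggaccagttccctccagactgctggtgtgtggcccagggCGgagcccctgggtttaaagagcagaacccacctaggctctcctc
Fxyd6: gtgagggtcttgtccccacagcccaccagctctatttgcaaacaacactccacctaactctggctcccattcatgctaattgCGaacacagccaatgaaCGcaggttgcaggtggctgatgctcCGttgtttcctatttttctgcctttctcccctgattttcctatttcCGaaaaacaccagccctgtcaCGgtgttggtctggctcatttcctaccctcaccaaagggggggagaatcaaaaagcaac
Atp1b1: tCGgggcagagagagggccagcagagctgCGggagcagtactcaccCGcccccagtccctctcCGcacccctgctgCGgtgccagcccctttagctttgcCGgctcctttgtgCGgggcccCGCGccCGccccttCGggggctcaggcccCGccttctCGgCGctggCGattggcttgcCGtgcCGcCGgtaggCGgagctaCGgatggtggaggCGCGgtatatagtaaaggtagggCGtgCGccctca

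The Fxyd4 window held 3 CG, the Fxyd6 window 5 and the Atp1b1 window 24. CG reads the same on both strands, so 1 search covers both. Over 32851 such windows of the mouse genome the median was 6, and 92.1% held at least 1. At least 3 CG were in 71% of windows, at least 5 in 55.6% and at least 24 in 12%. Windows were found for 7 of the 9 genes. Fxyd1 and Fxyd5 had 3 CG, Fxyd3 had 5, and Atp1b3 had 24 and 35 before its 2 annotated starts. Methylation was not measured on these arrays, and the counts describe the letters only. The RefSeq order of genes places Fxyd5, Fxyd7 and Fxyd1 side by side on chromosome 7, with Lgi4 between Fxyd1 and Fxyd3, and Fxyd6 next to Fxyd2 on chromosome 9.

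The mean log2 KO over WT ratio was below 0 for 14 of 14 probes, with a median of -0.174 beside -0.0026 over all 35562 kept probes. Several of these probes belong to the same gene and share the same arrays. The means of Fxyd2, Fxyd3, Fxyd7 and Atp1b3 probe 3 were smaller than their SE. Under alternatives they reached 0.295, 0.411, 0.0362 and 0.349, so their sign was not stable. The fit over all kept probes called 3 of the 14 (limma, Benjamini-Hochberg adjusted p under 0.05), the Fxyd4 probe and both Fxyd6 probes. All 3 were lower in KO RNA, and 0 were higher. Over the whole array 5.71% of probes were called, 2.83% higher and 2.88% lower. As the genes were picked with these ratios in view, nothing is read from these counts. Lower signal in a whole tumour can come from fewer cells of a type or from less RNA per cell, which cannot be told apart here.

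**Figure D1:**
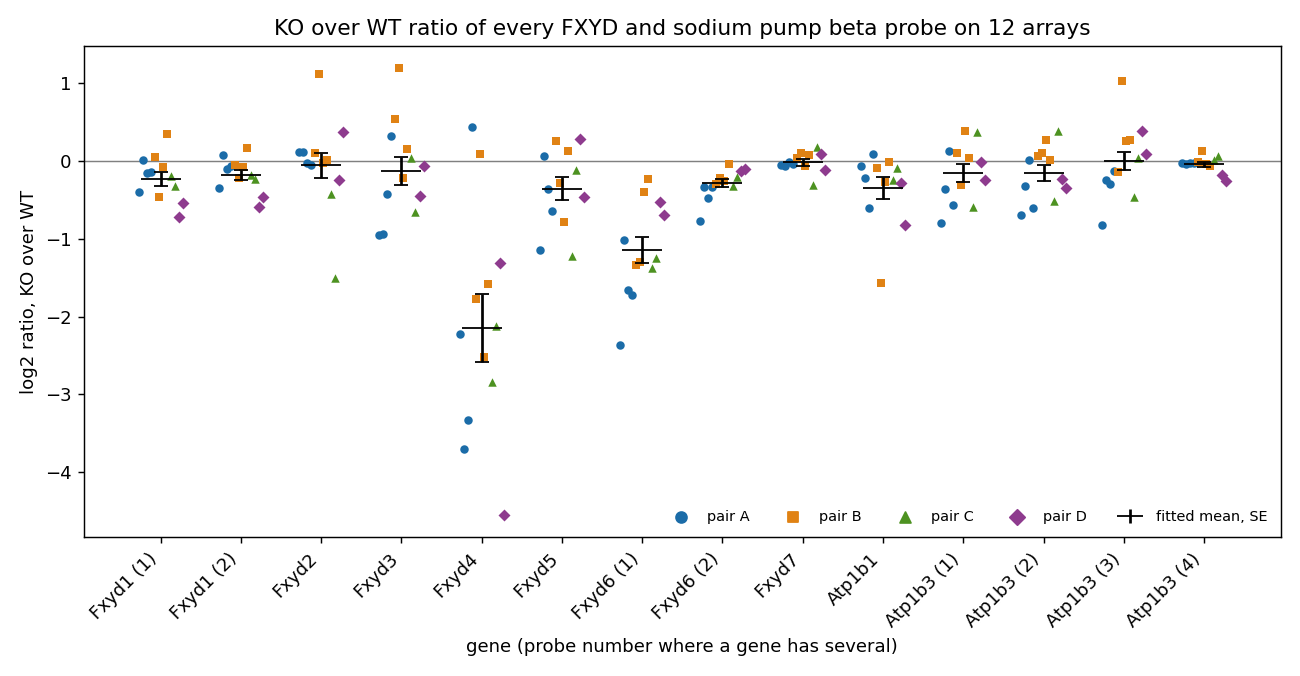
Log2 KO over WT ratio (vertical axis) of each of the 14 probes (horizontal axis) on each of 12 arrays, coloured by pair, with the fitted mean and its SE in black. The Fxyd4 values spread from -4.54 to 0.431, the 12 values of Fxyd6 probe 1 all lie below 0, and the other probes scatter around or just below 0.

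Fxyd4, also known as CHIF, is a corticosteroid-induced FXYD protein of kidney collecting duct and distal colon that raises the pump's affinity for sodium. Its 1 probe lies at chr6:117959046-117959105 on the minus strand (mm7, the array's annotation build). It was well above background for both RNAs on 12 of 12 arrays. In pair A the log2 ratios were -2.23, -3.7, -3.33 and 0.431 in replicates 1 to 4. In pair B they were -1.78, 0.0846, -2.51 and -1.58 in replicates 5 to 8. In pair C they were -2.84 and -2.12, and in pair D -1.32 and -4.54. KO RNA was thus lower on 10 of 12 arrays, and the exceptions, replicates 4 and 6, came from different pairs. The mean was -2.15 ± 0.431 (SE, n = 12 arrays), a 4.43-fold lower signal.

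The Fxyd4 intensities show where those exceptions lay. WT RNA had a log2 intensity of 13.93 on average and KO RNA 11.81. WT values ran from 10.6 to 15.72 and KO values from 10.58 to 14.06, so the groups overlapped. On replicate 4 the WT level was 10.6, the lowest of the 12 WT values, beside a KO level of 11.03. On replicate 6 the KO level was 14.06, the highest of the 12 KO values, beside a WT level of 13.97. On replicate 12, which had the largest ratio, the WT level was 15.72 and the KO level 11.17. Within pair A alone the WT level ran from 10.6 to 15.26.

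Without replicate 4 the mean ratio of Fxyd4 was -2.37, and without replicate 12 it was -1.84. Within slides 1, 2 and 3 it was -2.21, -1.45 and -2.71. Leaving out pair A gave -2.11, leaving out pair C -2.15, and median centring in place of loess -2.06. On replicates 4 and 6, the exceptions, the median ratio of the 6 alveolar type 1 markers was 1.37 and -0.0299, in a range over arrays from -0.913 to 1.37. The median of the 4 club cell markers was 1.15 and 1.26 there, and above 0 on 8 of 12 arrays in all. On replicate 5, with an Fxyd4 ratio of -1.78, it was 2.46. On replicates 11 and 12, with Fxyd4 ratios of -1.32 and -4.54, the club cell median was -5.68 and 2.86, the lowest and the highest of the 12 arrays. The part of these cells in the Fxyd4 ratios was not tested.

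Fxyd6, or phosphohippolin, is a pump regulator best known from brain and inner ear. Its probe 1, at chr9:45354272-45354331 on the plus strand (mm7), was well above background for both RNAs on 12 of 12 arrays. The log2 ratios in pair A were -2.37, -1.02, -1.66 and -1.72, and in pair B -1.34, -1.29, -0.408 and -0.234. In pair C they were -1.38 and -1.25, and in pair D -0.534 and -0.696. KO RNA was lower on all 12 arrays, least in replicates 7 and 8 of pair B. The mean was -1.15 ± 0.167 (SE, n = 12), a 2.22-fold lower signal.

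The log2 intensity of Fxyd6 probe 1 was 12.35 in WT RNA (11.6 to 13.44) and 11.19 in KO RNA (10.22 to 11.92). The groups overlapped between 11.6 and 11.92, although KO was below WT on each single array. The mean of WT RNA was highest in pair A, at 12.75, where the mean ratio was -1.69. Pair B had a mean ratio of -0.82, pair C of -1.31 and pair D of -0.615. KO RNA was in Cy5 on both arrays of pair C and in Cy3 on both arrays of pair D. The means of these 2 pairs therefore also hold a dye difference. With a dye term in the fit, pair C had -1.12 and pair D -0.805.

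**Figure D2:**
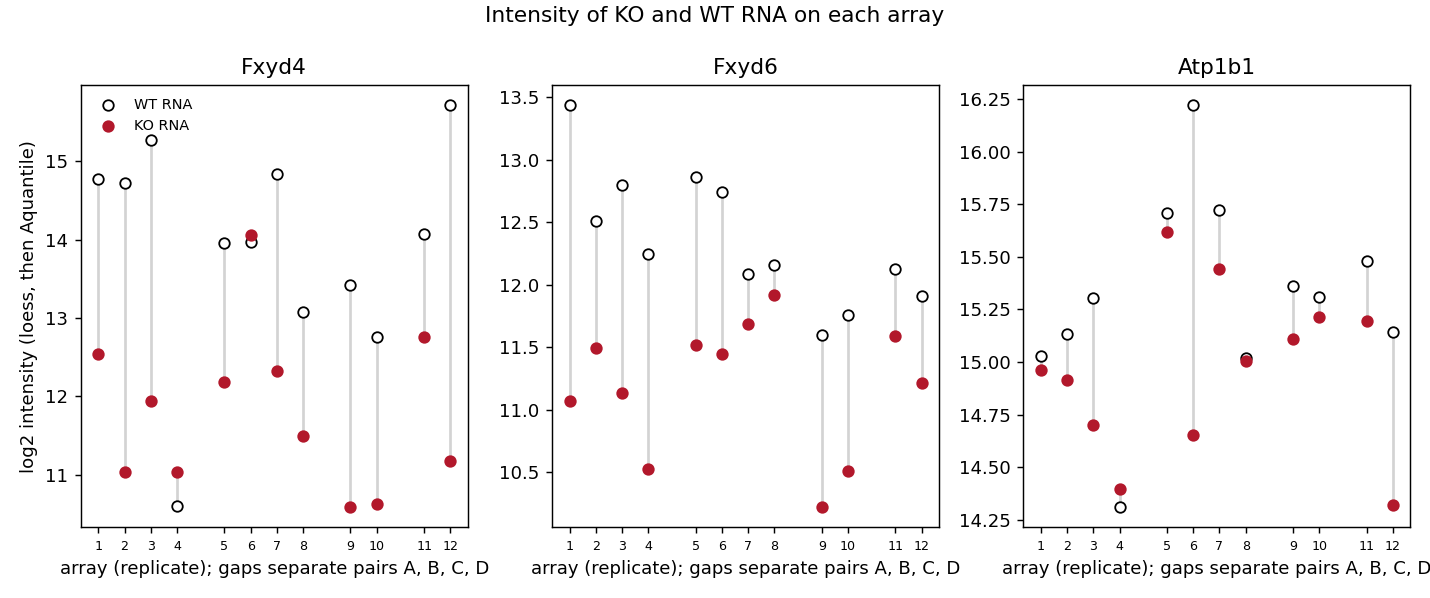
Log2 intensity (vertical axis) of WT RNA (open) and KO RNA (red) on each of 12 arrays (horizontal axis) for Fxyd4, Fxyd6 probe 1 and Atp1b1, with a line joining the 2 values of an array. KO lies below WT on 10, 12 and 11 arrays, and the 3 panels have their own scales.

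Fxyd6 probe 2 spans 769 bases of the genome, chr9:45349041-45349809 on the plus strand (mm7), against 60 for probe 1, so it may cross a splice junction. Its ratios were also below 0 on 12 of 12 arrays, from -0.774 to -0.0468 with a median of -0.278. Its mean of -0.289 ± 0.0518 (SE) was closer to 0 than that of probe 1. Its log2 intensity was low, 7.604 in WT RNA and 7.31 in KO RNA. The part of dim signal or of probe position in its smaller ratio was not tested. In pair D its KO signal was above background on 0 of 2 arrays and its WT signal on 2 of 2, at mean log2 intensities of 7.008 and 7.126. KO RNA was in Cy3 on both arrays of pair D, so genotype and dye cannot be told apart there. The ratios of the 2 probes correlated at r = 0.865 over the same 12 arrays, which share RNA and hybridisation.

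Of the nerve and Schwann cell markers, 4 of 5 were measured and 0 of 4 passed the test, with medians on single arrays from -0.311 to 0.157. The 7 endothelial markers that fell did so by 0.567 (Tie1) to 1.47 (Cldn5) on the log2 scale. The endothelial median and both Fxyd6 probes were below 0 on all 12 arrays, so direction sets no array apart. On replicate 1, with the lowest Fxyd6 probe 1 ratio (-2.37), the endothelial median was -0.597. On replicate 11, with the lowest endothelial median (-1.36), the Fxyd6 probe 1 ratio was -0.534. The part of vessel cells in the Fxyd6 ratio was not tested.

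Fxyd1 (phospholemman) regulates the pump of heart and skeletal muscle in a way that depends on its phosphorylation. Probe 1 (chr7:27992811-27993208, mm7, minus strand) had ratios from -0.725 to 0.342 with a median of -0.177, and was lower in KO RNA on 9 of 12 arrays. Probe 2 (chr7:27991688-27991747) had ratios from -0.591 to 0.159 with a median of -0.147, and was lower on 10 of 12. The means were -0.232 ± 0.0893 and -0.188 ± 0.0667 (SE). The lowest values of both probes were those of pair D, -0.725 and -0.539 for probe 1 and -0.591 and -0.462 for probe 2. The 2 probes correlated at r = 0.956 over the 12 arrays. Smooth muscle markers passed the test in 0 of 5 cases and cardiac markers in 1 of 6, both with medians on either side of 0 among single arrays.

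**Figure D3:**
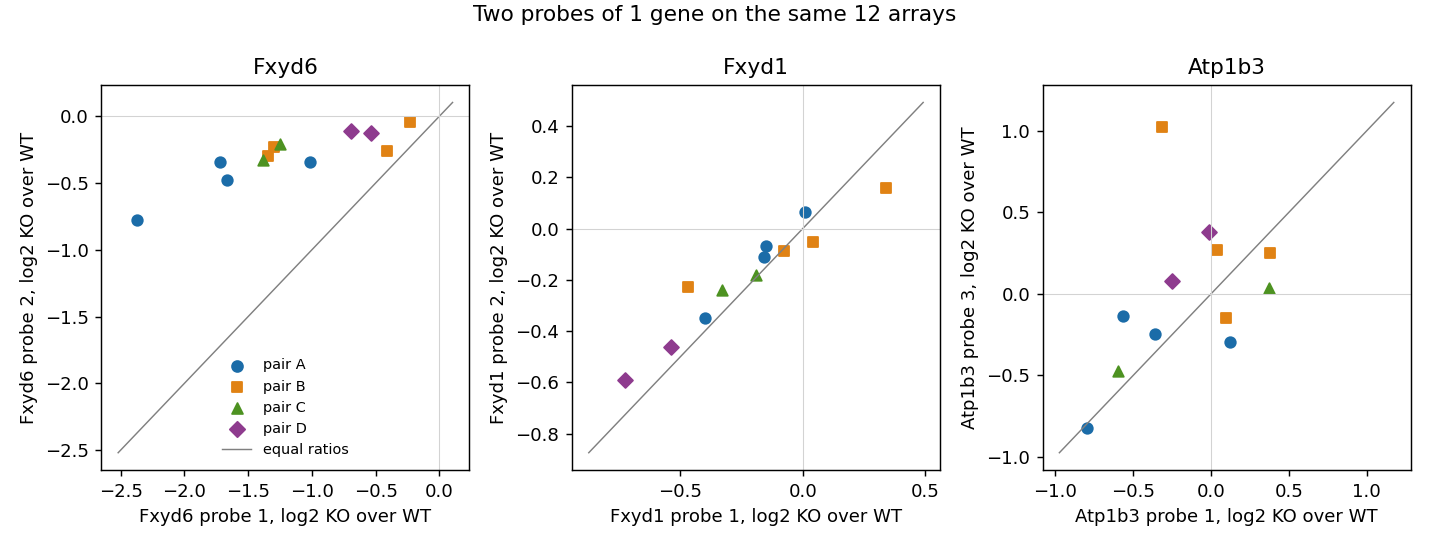
Log2 KO over WT ratio of one probe of a gene (horizontal axis) against another probe of it (vertical axis) on the same 12 arrays, coloured by pair, with a line of equal ratios. Fxyd6 points lie above the line, since probe 2 moved less than probe 1, and Fxyd1 points lie close to the line. Atp1b3 probes 1 and 3 part on several arrays, most on replicate 6.

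Fxyd5, or dysadherin, is a pump partner that weakens contacts between epithelial cells and is found in many carcinomas. Its probe (chr7:27972585-27972644, mm7, minus strand) had ratios from -1.23 to 0.271 with a median of -0.329, and was lower on 8 of 12 arrays. The mean was -0.363 ± 0.147 (SE). Arrays of one pair disagreed: pair C gave -1.23 and -0.116, and pair A ran from -1.15 to 0.0574. Fibroblast and macrophage markers passed the test in 0 of 5 cases each, with medians on single arrays from -1.79 to 0.88 and from -1.39 to 0.601. The medians of their mean ratios were -0.37 and -0.281. On replicate 9, with the lowest Fxyd5 ratio (-1.23), the fibroblast and macrophage medians were -1.1 and -1.39. On replicate 11, with the highest (0.271), they were -0.367 and 0.111. The part of these cells in the Fxyd5 ratio was not tested.

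Fxyd3 (Mat-8) was first described in mammary tumours and is found in several epithelia. Its probe spans 850 bases (chr7:28011126-28011975, mm7, minus strand). Its ratios ran from -0.958 to 1.18 with a median of -0.147, and were lower on 7 of 12 arrays. The mean was -0.133 ± 0.18 (SE), smaller than its error. In pair A 3 of 4 arrays lay between -0.958 and -0.428, while replicate 6 of pair B gave 1.18.

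Fxyd2, the gamma subunit of the kidney pump, and Fxyd7, known from brain, were near the limit of detection. The Fxyd2 probe (chr9:45366337-45366551, mm7, plus strand) was well above background for KO RNA on 8 arrays and for WT RNA on 7 of 12. Its ratios were higher on 6 arrays and lower on 6, from -1.51 to 1.11, with a mean of -0.0623 ± 0.162 (SE). In pair C the KO RNA was above background on 0 of 2 arrays and the WT RNA on 1 of 2, and in pair D neither RNA was on either array. The Fxyd7 probe (chr7:27984373-27984528, mm7, minus strand) was above background on 9 arrays for each RNA and on 0 of 2 for both in pair D. Its ratios lay between -0.318 and 0.177 with a mean of -0.0188 ± 0.0448 (SE). Neither gene gave a mean ratio larger than its error.

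Atp1b1, the main beta subunit of epithelial pumps, was bright in both RNAs, with a log2 intensity of 15.31 in WT and 14.96 in KO RNA. Its probe lies at chr1:164403860-164403919 (mm7, minus strand). In pair A the ratios were -0.0684, -0.218, -0.606 and 0.0858, and in pair B -0.0904, -1.57, -0.28 and -0.0142. In pair C they were -0.25 and -0.0946, and in pair D -0.287 and -0.821. KO RNA was lower on 11 of 12 arrays, but by little on most of them. The mean was -0.351 ± 0.139 (SE), and -0.244 without replicate 6, whose ratio of -1.57 stood apart.

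Atp1b3 encodes another beta subunit, found in many tissues. Probe 1 (chr9:95974170-95974229, mm7, minus strand) had a mean ratio of -0.156 ± 0.115 (SE) and probe 2 (chr9:95974646-95974705) of -0.161 ± 0.103. They were lower on 7 and 6 of 12 arrays and correlated at r = 0.912. Probe 3 (chr9:95984554-95984613) had a mean of -0.00601 ± 0.118. On replicate 6 it gave 1.02, where probes 1 and 2 gave -0.312 and 0.0939, and over 12 arrays it correlated with them at 0.411 and 0.565. Probe 4 (chr9:95989646-95989705) stands on a cDNA clone that the array file describes as unclassifiable, and had a mean of -0.0464 ± 0.0346. It was near the limit of detection, above background on 10 arrays for KO RNA and 11 for WT RNA. In pair D its KO signal was above background on 0 of 2 arrays. The probes of Atp1b3 therefore did not report 1 common ratio on each array. Probes 1 and 3 differed in direction on replicates 3, 5, 6, 11 and 12.

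Whether the KO over WT ratio differed between the 4 pairs was tested apart from its mean. The F test over pair coefficients (limma) called 0 of 14 probes, with adjusted p from 0.308 for Fxyd1 probe 2 to 0.946 for Fxyd7, and the share of all probes called was 0.368%. At an unadjusted p under 0.05, 3 of the 14 passed, Fxyd1 probe 2 (0.0195), Fxyd6 probe 2 (0.0242) and Atp1b3 probe 3 (0.0445). With 2 arrays in pairs C and D, and each of these in 1 dye orientation, the test does not show that the pairs were alike.

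Other beta subunits and related proton pumps did not pass the test. Of the 5 such genes reported, 0 rose and 0 fell, with mean log2 KO over WT ratios from -0.0766 to 0.0375. The share of genes called over the array was 2.99% higher and 3.5% lower (20036 genes, each by its brightest kept probe). The beta subunit gene Atp1b2 had -0.0766 ± 0.0396 (SE, limma adjusted p = 0.3), with 6 arrays higher and 6 lower, and the related Atp1b4 had 0.0375 ± 0.0342 (adjusted p = 0.598). The gastric proton pump subunits Atp4a and Atp4b had 0.0217 and -0.0316, and the colonic pump gene Atp12a -0.00948 (limma adjusted p from 0.804 to 0.909). Of 8 genes for other pump partners, among them the Nkain genes and the calcium pump regulators Pln and Sln, 0 passed.

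Around the pump, 57 genes of sodium, chloride, potassium and water transport are reported, these pump genes and partners included. Of them 5 passed the test, 2 higher and 3 lower, and the median ratio was -0.0315. Of the 8 sodium entry genes among them 0 passed. The epithelial sodium channel subunits Scnn1a, Scnn1b and Scnn1g had means of -0.419, -0.302 and -0.356 and did not pass (limma adjusted p from 0.243 to 0.282). Of the 13 regulators of sodium channels and transporters, 1 fell and 1 rose. Sgk1, a steroid-induced kinase that keeps the sodium channel at the surface, fell by 0.798 ± 0.186 (adjusted p = 0.0311, lower on 11 of 12). Stk39, a kinase that activates sodium-chloride cotransporters, rose by 0.517 ± 0.0997 (adjusted p = 0.0139, higher on 11 of 12).

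Of the 11 chloride and bicarbonate genes, 1 rose, Slc26a9, an anion transporter of airway and stomach epithelium (0.695 ± 0.164, limma adjusted p = 0.0326, higher on 10 of 12 arrays). Its call was lost when any of replicates 2, 6, 8, 10, 11 and 12 was left out (limma adjusted p from 0.0509 to 0.0719), and that of Sgk1 without any of replicates 1, 6, 7, 8, 9 and 12 (0.0514 to 0.0722). Over 34 alternatives the limma adjusted p ran from 0.0184 to 0.772 for Slc26a9 and from 0.0122 to 0.418 for Sgk1. Of the 8 potassium recycling genes, 1 fell, the channel gene Kcnq1 (-0.728 ± 0.103, limma adjusted p = 0.00332, lower on 12 of 12 arrays). Of the 4 water channel genes, 1 fell, Aqp1 (-0.649 ± 0.118, limma adjusted p = 0.0108, lower on 12 of 12). Aqp1 is the water channel of lung vessels, and 7 of 8 endothelial markers also fell. The part of vessel cells in the Aqp1 ratio was not tested. With median centring in place of loess, Kcnq1, Aqp1 and Sgk1 no longer passed (limma adjusted p from 0.0677 to 0.157).

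**Figure D4:**
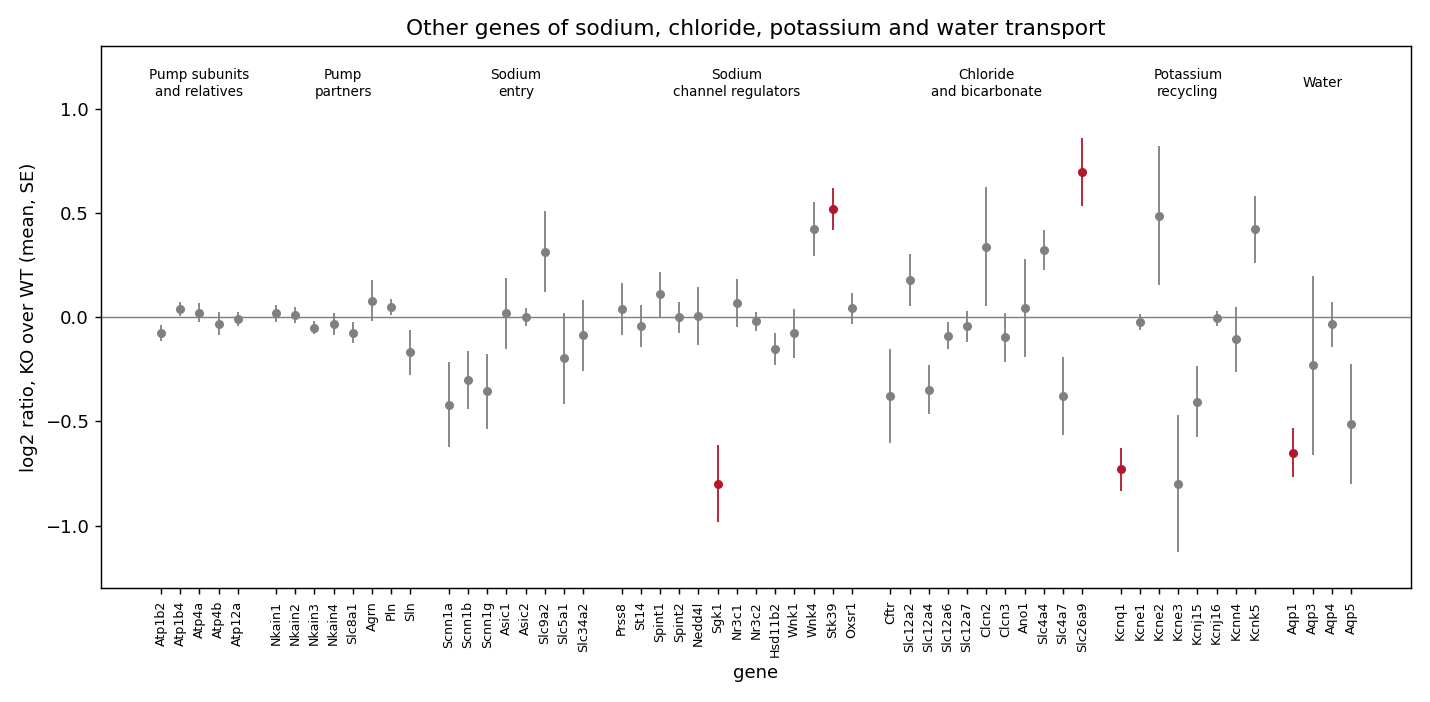
Mean log2 KO over WT ratio with its SE (vertical axis) of the 57 reported transport genes (horizontal axis) in 7 groups, with the 5 genes past the threshold in red. Stk39 and Slc26a9 lie above 0 and Sgk1, Kcnq1 and Aqp1 below, while the pump subunits and relatives lie between -0.0766 and 0.0375.

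Genes whose ratios ran most like those of Fxyd4, Fxyd6 and Atp1b1 across the 12 arrays were sought among 17127 named genes. For Fxyd4 these were Batf2 (r = 0.898), Snx15 (0.89), Krt85 (0.889), Ass1 (0.883) and Iqgap3 (0.881). For Fxyd6 they were Unc80 (r = 0.933), St3gal4 (0.905), Serpinb9c (0.865), Eif1ax (0.862) and Ache (0.856). For Atp1b1 they were Rap1gap (r = 0.898), Rasl11b (0.866), Ankrd25 (0.866), Usp27x (0.864) and Naxe (0.858). A like course over arrays is not a like fall. The mean log2 KO over WT ratios of the genes like Fxyd4 ran from -0.262 (Snx15) to 0.401 (Ass1). For those like Fxyd6 they ran from -0.35 (St3gal4) to 0.225 (Eif1ax), with Unc80 between -0.155 and 0.149 on single arrays. For those like Atp1b1 they ran from -0.639 (Rasl11b) to -0.0285 (Naxe). All points share the 12 arrays, and the highest of many correlations is high by selection. Fxyd4 and Fxyd6 probe 1 themselves had r = -0.157 across the arrays. Fxyd4 and Atp1b1 had r = -0.0187, and Fxyd6 probe 1 and Atp1b3 probe 1 r = 0.571.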

How the data were processed

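Total RNA of flash-frozen tumours was labelled with Cy3 or Cy5 and hybridised to 12 Agilent 2-colour arrays of design 014868, per the labels and the file headers. Spots were read with Feature Extraction 10.1.1.1 (protocol GE2-v5_10_Apr08), per the file headers. Deposited spot intensities (mean) and local background intensities (median) carry no normalization, and the deposited flags mark spots above background, saturated or outlying. The deposited table of log2 ratios was made by the authors with limma, per the submitters' processing notes (version not given in the sources used here). How these log2 ratios were centred stays unknown. Their column medians ran from -0.00856 to 0.0115, and they correlated with the ratios computed here at 0.9913 to 0.9973. Those values served as an alternative.

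Analysis used R 4.3.3 and its packages data.table (version 1.17.8), limma 3.58.1 and statmod 1.5.0. Intensities were corrected with normexp (offset 50), with flagged local backgrounds replaced by the array's median for that dye. Loess was applied within each array, with control and outlier spots at weight 0. Every ratio was turned to KO over WT, using the dyes in the labels. The model had a dye term and took the pair as random (correlation within pairs 0.0794). P-values were Benjamini-Hochberg adjusted over 35562 probes, and the fit was tested on simulated data. Of these probes, 7455 had an unadjusted p under 0.05. Intensities per dye were scaled with Aquantile. Levels of different probes are not comparable. For a gene outside the 9, the brightest probe that passed the filter stood for it. The number of arrays limits the precision.

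Members and lists were chosen with earlier results of these data known. Named genes were the 9 members, the pump subunits and relatives reported, up to 4 called genes per transport list, Dnmt3a, and the 5 most correlated genes of members with 1 sign on at least 10 of 12 arrays. Marker genes and the sodium channel subunits were named beyond that rule. Marker lists covered alveolar type 1 and 2, club, ciliated, ionocyte, endothelial, smooth muscle, fibroblast, cardiac muscle, macrophage, neutrophil, T, B, and Schwann and nerve cells. Some genes of the transport lists are not reported here, and list counts leave them out. Alternatives changed the background, normalization, filter, model, threshold, slide and the arrays included.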

Additional observations from a re-analysis of the deposited data

Results flagged for a closer look

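In 50 sets of 4 arrays (a gene or probe in pair A or B), 3 held an array far from the other 3 by Dixon's test, and chance alone would flag about 1 in 20. The Fxyd2 ratio of replicate 6 in pair B was 1.11 on the log2 scale, against -0.0326 to 0.0921 on the other arrays of that pair. The Atp1b1 ratio of the same array was -1.57, against -0.28 to -0.0142. The Sgk1 ratio of replicate 5 in pair B was -0.0577, against -1.21 to -1.11.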

How the results depend on the processing

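Direction held for Fxyd4 (-2.71 to -1.45) and both Fxyd6 probes (-1.69 to -0.82 and -0.492 to -0.191) under every alternative run. The genes were chosen on these ratios, so counts of their probes past the threshold are a description and no check of stability. Of the 14 probes, 3 were called with any 1 array left out, 1 with median centring, 1 without pair A, and 0 with pair means or within slides 1, 2 and 3. Over the whole array, 2032 probes were called (1007 higher, 1025 lower), and 1053 (without replicate 12) to 2686 (without replicate 5) with 1 array left out. Median centring gave 486 (268 higher, 218 lower), arrays as independent 3269, pair means 51 and adjusted p under 0.01 448. Without pairs A, B, C and D there were 578, 1192, 1183 and 1268, within slides 1, 2 and 3 0, 1 and 0, and without slide 3, an alternative added after the data were seen, 1256. Local backgrounds as deposited gave 940 higher and 585 lower. Of 57 transport genes 5 were called, or 3 (without replicate 6, 8 or 12) to 7 (without replicate 5) with 1 array left out. The count was 2 with median centring or without pair D, 0 with pair means or within each slide, 1 at adjusted p under 0.01, and 3 without pair A, pair B or slide 3. Fits on fewer arrays and pair means have fewer degrees of freedom; for the others the cause was not tested. Kcnq1 passed in 29 of 34 alternatives, Aqp1 in 28, Stk39 in 27, Slc26a9 in 20 and Sgk1 in 18. Dnmt3a passed in 21 of 34. Among the alternatives where Dnmt3a lost its call were leaving out replicate 12 (limma adjusted p = 0.0511) and median centring (0.134). The Slc26a9 ratio was 0.468 without pair B. Probes differing between pairs stayed at 0 of 14 wherever that test was run. Signal over background limits Fxyd2, Fxyd7 and Fxyd6 probe 2, most on slide 3.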
